A study of Homo sapiens with 27 samples.

Results

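The mRNA response of human macrophage-like cells to bacterial lipopolysaccharide (LPS) was measured by poly(A) RNA sequencing in 4 libraries treated with LPS and 4 treated with vehicle. These are 8 of the 27 samples of the series, and they were taken by their labels alone, so no measured value chose them. The table lists 20453 genes. Of these, 13327 had enough counts to be tested.

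THP-1 is an established human monocytic leukemia cell line. All cells in the compared groups were first turned into macrophage-like cells with the phorbol ester PMA at 10 ng/ml for 24 h and then moved to fresh medium. The vehicle group received ethanol in buffer for 3 h, and the LPS group received LPS at 100 ng/ml for 3 h. Another group of 4 libraries, given LPS together with dexamethasone at 1 µM, entered the filter, the scaling and the estimate of spread but not the comparison. THP-1 is one line of a single leukemia, so the 4 libraries of a group are not 4 donors. The labels do not say that replicates came from separate cultures, so the p-values measure the spread between these libraries, which may be technical.

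LPS is a component of the outer membrane of Gram-negative bacteria. On myeloid cells it is passed by CD14 to the receptor TLR4 with its partner MD-2 (gene LY96). TLR4 signals through the adaptor MYD88 to NF-kB and the MAP kinases, which turn on inflammatory genes, and through the adaptor TRIF (gene TICAM1) to interferon beta, whose secretion turns on a second set of antiviral genes through JAK-STAT signalling.

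The 8 compared libraries held 20855210 to 30665116 counts and 15556 to 16354 genes with at least 1 count. Levels are in CPM, the usual counts-per-million scale, here with library sizes scaled by TMM. The label was checked against lineage markers. The 10 monocyte and macrophage markers summed to 6018 to 6252 CPM with vehicle and 4759 to 5064 CPM with LPS. Within that sum the vehicle means ran from 13.3 CPM for LYZ and 35.4 CPM for CD14 to 1753 CPM for ITGAX. T cell, B cell, epithelial and erythroid marker sums stayed at or below 1.69 CPM in the 8 libraries, with CD3G, EPCAM, HBB, HBA1 and HBA2 at 0, and the neutrophil markers FCGR3B and CEACAM8 were at 0. The sums for NK cell, neutrophil, endothelial and fibroblast markers lay between 5.57 and 24.3 CPM. With vehicle the NK cell marker GNLY averaged 20.3 CPM, above LYZ, and the neutrophil markers CSF3R and MMP8 averaged 11.6 and 6.28 CPM. In bulk RNA, fewer expressing cells and less RNA per cell cannot be told apart, and this holds for every fall below.

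LPS for 3 h moved most of the transcriptome by small amounts and a small set of genes by very large ones. Of the 13327 genes tested, 8291 (62.2%) changed, 3818 higher (28.6%) and 4473 lower (33.6%), by edgeR's quasi-likelihood test at an adjusted p under 0.05. All 4 LPS libraries lay above all 4 vehicle libraries for 24.4% of the tested genes and below them for 28.4%. The median called rise was 1.55-fold and the median called fall 1.75-fold. The median log2 fold change over all tested genes was -0.05. When libraries were scaled by total counts instead, that median moved by -0.271 and the calls split into 2230 higher and 6654 lower (25.1% higher in place of 46.0%), so small changes are given relative to the scaling used here.

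The balance between rises and falls turned with the size of the change. At 2-fold or more, falls outnumbered rises, 1689 (12.7% of tested genes) to 1201 (9.01%). At 4-fold or more there were 533 rises (4.0%) and 370 falls (2.78%), at 8-fold or more 271 (2.03%) and 82 (0.615%), and at 16-fold or more 131 (0.983%) and 16 (0.12%). With total-count scaling falls still outnumbered rises at 4-fold, 563 to 438, whereas rises led at 8-fold, 223 to 112, and at 16-fold, 106 to 27. Of the 533 genes at least 4-fold higher, 202 had a mean under 1 CPM with vehicle, 166 lay between 1 and 10 CPM, 134 between 10 and 100 CPM, and 31 were already at 100 CPM or more.

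**Figure D1:**
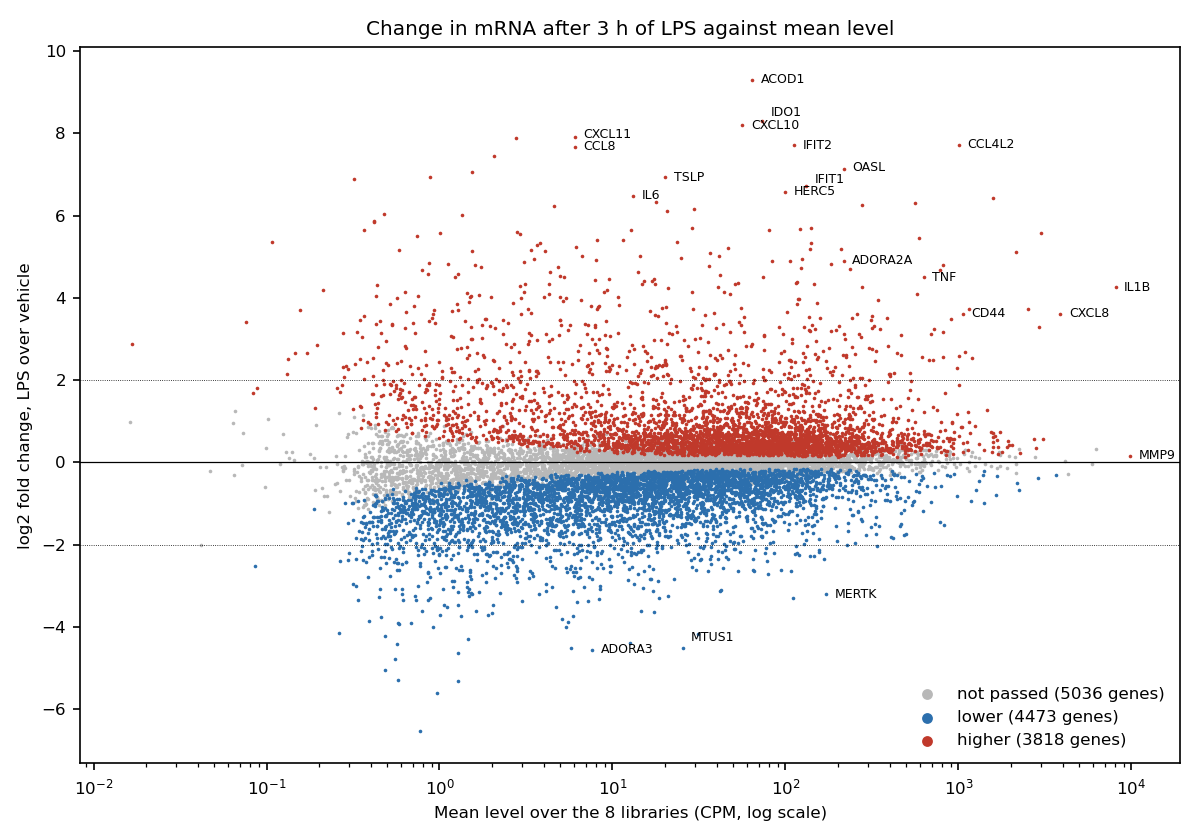
Change in mRNA (log2 fold change, LPS over vehicle) against the mean level over the 8 libraries (CPM, log scale), with 1 point per tested gene, red and blue for called genes and dotted lines at 4-fold. The rises reach further from zero than the falls. ACOD1 lies at 9.31, and ADORA3 at -4.56 is the largest called fall with a mean of at least 5 CPM and no overlap between libraries. Without that limit a gene named GPR lies lower, at -5.6.

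A group of 18 genes was under 1 CPM in every vehicle library and at or above 10 CPM in every LPS library. Among them were TNIP3, CXCL10, CXCL11, ARAP2, NRG2, TSLP, CCN2, IL6, CRLF2, PLAT, IDO1, CD274, ACOD1, FOXF1, SNN, CCR7 and CCL8. They include secreted signals, the T cell inhibitory ligand CD274 (PD-L1), the lymph node homing receptor CCR7, tissue plasminogen activator (PLAT) and FOXF1, a forkhead transcription factor best known from lung and gut mesenchyme. FOXF1 read 0.838, 0.95, 0.957 and 0.655 CPM with vehicle and 28.0, 27.7, 28.1 and 27.6 CPM with LPS. Both a cytokine and its own receptor chain were in this group. TSLP, a cytokine known mainly from epithelium, read 0.377, 0.413, 0.319 and 0.207 CPM with vehicle and 35.2, 34.4, 44.1 and 46.3 CPM with LPS (log2 fold change 6.93, SE 0.21, 122-fold). CRLF2, the chain that makes the TSLP receptor specific, read 0.335, 0.372, 0.377 and 0.172 CPM with vehicle and 12.8, 12.4, 11.4 and 11.6 CPM with LPS (5.24, SE 0.20). The reverse pattern, at least 10 CPM in every vehicle library and under 1 CPM in every LPS library, held for 1 gene, ADORA3. The genes named here from outside the named-gene rule (NRG2, CCN2, CRLF2, FOXF1, ARAP2 and SNN) were picked out by these levels, after their values were seen.

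Cytokine mRNA became a sizeable part of the whole library. The 82 listed cytokine and chemokine genes took 0.233, 0.261, 0.254 and 0.199% of all counts with vehicle and 3.49, 3.7, 3.9 and 3.59% with LPS. Their mean share rose from 0.237% ± 0.0275 (SD, n = 4) to 3.67% ± 0.173 (SD, n = 4), a gain of 3.43 percentage points (exact permutation test, two-sided, p = 0.0286, adjusted over both shares 0.0286, the smallest value that 4 against 4 libraries can give). The 51 antiviral effectors and guanylate-binding proteins went from 0.181% ± 0.0203 to 0.954% ± 0.0421 (SD, n = 4 each), with the same exact permutation p of 0.0286. The members of both sets were chosen with earlier results of these data known, so these p-values are no independent support for the gains. IL1B alone held 1.43% of counts with LPS and was then the most counted gene, whereas with vehicle the most counted gene was the gelatinase MMP9 at 1.03%. After IL1B and CXCL8, the next largest gains in share went to TNFAIP2, to 0.548%, and to MFSD2A, a lysolipid transporter, to 0.492%. Both were picked out by this ranking.

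**Figure D2:**
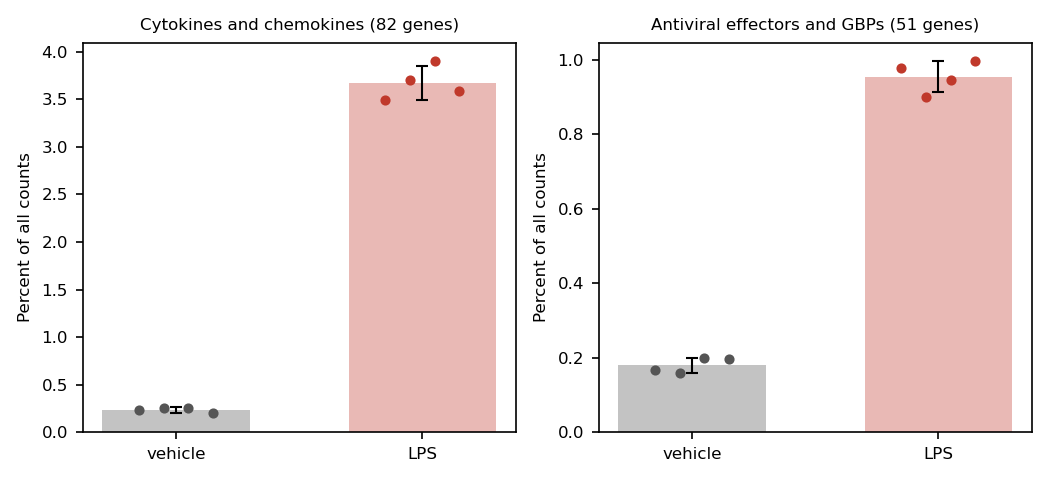
Share of all counts (percent) in each library, with points for the 4 libraries of a group, bars for the mean and error bars for the SD. The LPS libraries sit at 3.49 to 3.9% for cytokines and chemokines, above the vehicle libraries at 0.199 to 0.261%, and at 0.9 to 0.996% against 0.16 to 0.199% for antiviral effectors and guanylate-binding proteins.

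The receptor side of the pathway moved in both directions. Of 23 tested genes for the LPS receptor, its adaptors and the IKK kinases, 14 rose (60.9%) and 4 fell (17.4%). Over all tested genes these shares were 28.6 and 33.6%. The list's median log2 fold change was 0.49, against -0.05 for all tested genes. The co-receptor CD14 read 36.2, 35.9, 33.6 and 35.7 CPM with vehicle and 8.64, 9.04, 8.3 and 7.93 CPM with LPS. This was a 4.17-fold fall with tight groups that did not overlap (edgeR adjusted p = 3.6e-08). LY96 also fell, from 30.8 ± 6.17 to 17.3 ± 0.935 CPM (SD, n = 4). TLR4 itself rose 1.58-fold, from 35.9, 27.7, 52.5 and 49.8 CPM to 64.9, 46.9, 81.7 and 69.2 CPM, but LPS replicate 2 lay below 2 vehicle libraries, and with total-count scaling the rise did not pass (log2 fold change 0.39, edgeR adjusted p = 0.098).

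IRAK2, a kinase-like component of the complex built on MYD88, read 33.3, 34.7, 50.6 and 31.3 CPM with vehicle and 368, 281, 414 and 423 CPM with LPS, a 9.9-fold rise. MAP3K8, the kinase that feeds the ERK arm, rose 4.03-fold, and TAB2 and TICAM1 rose by 1.33 and 1.25 on the log2 scale, with MYD88 between them. TAB1 and IRAK4 fell, with log2 fold changes of -1.27 and -0.37.

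Of 25 tested sensors of other ligands 12 rose (48.0%, against 28.6% of all tested genes). The 10 that fell were a share closer to the overall 33.6%. The list's median log2 fold change was 0.21, which turned to -0.06 with total-count scaling. Cytosolic nucleic acid sensors were among the largest rises. AIM2, which senses DNA and builds an inflammasome, read 1.09, 1.61, 1.57 and 1.79 CPM with vehicle and 49.1, 45.8, 44.4 and 54.4 CPM with LPS, a 31.7-fold rise. IFIH1 (MDA5) and DHX58 (LGP2), which bind viral RNA, rose by 3.05 and 2.47 on the log2 scale. Other sensors fell with no overlap between the groups. NLRC4, the inflammasome scaffold for bacterial flagellin and needle proteins, read 50.5, 48.3, 43.0 and 54.1 CPM with vehicle and 9.44, 9.41, 7.24 and 7.29 CPM with LPS, a 5.87-fold fall. STING1, the adaptor for cytosolic DNA sensing through cGAS, fell 3.51-fold, from 39.4 ± 5.23 to 11.2 ± 1.75 CPM (SD, n = 4). TREM2, a lipid receptor of tissue macrophages, fell 2.9-fold from 514 to 177 CPM.

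All 11 NF-kB subunit and IkB genes rose (100% of the list, against 28.6% of tested genes), by log2 fold changes between 0.47 and 3.08. REL, the subunit c-Rel, rose most, from 11.7, 14.2, 21.3 and 16.5 CPM to 125, 97.0, 149 and 170 CPM. NFKBIA, the inhibitor IkB alpha, followed at 2.69, NFKBIZ, a nuclear IkB-like co-activator, at 2.67, NFKB1 at 2.57 and NFKB2 at 2.17 on the log2 scale. NF-kB dimers recognise a short DNA element, and its letters were searched in the 300 bases from 250 before to 50 after each RefSeq transcription start. The search took GGGA, any 2 bases, then TTCC, on both strands. Of the 9 members of this list with a promoter in the RefSeq table (GRCh38.p14), 4 held it (44.4%), against 181 of the 10709 tested genes with a promoter (1.69%) and 445 of all 27305 promoters of that length (1.63%). The 4 matches are shown with 9 bases on each side, 5′ to 3′ on the gene strand, with the matching letters in capitals. In NFKB1 the match began 49 bases before the start, in REL 47, in NFKBIA 81 and in NFKBIZ 223 bases before it.
NFKB1: gacgtcagtGGGAATTTCCagccaggaa
REL: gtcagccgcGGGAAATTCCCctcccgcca
NFKBIA: gactggcttGGAAATTCCCcgagcctga
NFKBIZ: ttttggtctGGGAATTTCCagtgtgcag
The REL stretch holds 2 overlapping matches, 1 on each strand. A match in letters is a description of the sequence and no evidence of binding.

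Negative regulators of the pathway rose alongside it. Of 24 tested brakes on TLR, cytokine and mRNA signals, 17 rose (70.8%) and 4 fell (16.7%), with a median of 1.6. Over all tested genes these shares were 28.6 and 33.6%. The NF-kB letters were in 2 of the 22 promoters available for this list (9.09%, against 1.69% of tested genes). That share is far below the share in the NF-kB and IkB list. TNIP3, a partner of the deubiquitinase A20, went from 0.293, 0.578, 0.464 and 0.414 CPM to 34.9, 27.7, 35.4 and 43.9 CPM. SOCS3, an inhibitor of cytokine receptor signalling, rose from 0.628, 1.4, 1.13 and 1.14 CPM to 55.5, 48.3, 59.2 and 63.5 CPM. TRAF1, a signalling adaptor of TNF receptors, rose 28.1-fold to a mean of 1562 CPM, with LPS libraries between 1277 and 1760 CPM. PELI1 and TNIP1 rose by 4.36 and 3.72 on the log2 scale. Against the list's direction, INPP5D (the phosphatase SHIP1) fell from 256 ± 44.0 to 56.5 ± 5.84 CPM and ZFP36L1, an mRNA decay factor, from 280 ± 46.9 to 55.4 ± 8.13 CPM (SD, n = 4 each). Among 11 MAP kinase phosphatases 8 rose (72.7%) and 1, DUSP7, fell (9.09%). In this list 2 fell without vehicle replicate 3 or LPS replicate 2, and with total-count scaling. The neuronal-type phosphatase gene DUSP8 rose most, from 0.945 to 16.8 CPM.

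Of 13 tested IL-1 family genes 11 rose (84.6%, against 28.6% of all tested genes) and 1 fell (median 2.35). The 2 chains of the IL-18 receptor were among them. IL18RAP read 1.05, 0.95, 0.957 and 0.31 CPM with vehicle and 56.6, 65.1, 53.5 and 59.6 CPM with LPS, a 72.1-fold rise. IL18R1 read 3.44, 4.09, 5.25 and 3.31 CPM with vehicle and 79.0, 71.4, 81.0 and 78.3 CPM with LPS, a 19.1-fold rise. IL18BP, the secreted decoy for IL-18, had a log2 fold change of -0.34 and was the member called lower. IL36G, an IL-1 relative known mainly from skin, rose 20.2-fold to 8.14 CPM.

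Among TNF superfamily ligands 9 of 13 rose (69.2%, against 28.6% of all tested genes) and 3 fell (23.1%, against 33.6%). CD70, the ligand of CD27 on lymphocytes, read 3.31, 3.67, 2.75 and 2.79 CPM with vehicle and 148, 179, 142 and 159 CPM with LPS, a 50.3-fold rise. TNFSF9, the ligand of 4-1BB, rose 18.3-fold, and its receptor TNFRSF9 rose by 2.89 on the log2 scale. TNFSF14 (LIGHT) and TNFSF4 (OX40 ligand) fell by 1.44 and 1.61 on that scale. Some pairs went opposite ways: CD27, the receptor of CD70, fell from 4.05 to 1.8 CPM, and TNFRSF4, the receptor of TNFSF4, rose from 0.974 to 5.29 CPM. The receptor family gave 9 rises (52.9%, against 28.6% of all tested genes) and 6 falls (35.3%, near the overall 33.6%) of 17. Total-count scaling turned these to 8 and 8. CD40, which receives help from T cells, rose from 38.9 ± 3.74 to 448 ± 15.8 CPM (SD, n = 4). TNFRSF12A, the TWEAK receptor, and TNFRSF21 (DR6) fell by 1.82 and 1.67.

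Interleukins outside the IL-1 family gave 12 rises (85.7%, against 28.6% of all tested genes) and 1 fall, IL16, among 14 tested. There were 2 falls with total-count scaling. IL23A, the subunit specific to IL-23, rose from 2.47, 3.8, 2.87 and 3.27 CPM to 55.4, 57.5, 53.3 and 52.5 CPM. IL12B, the subunit that IL-23 shares with IL-12, reached 5.52 CPM from 0.437 CPM. IL15 rose from 0.635 to 9.7 CPM, and its presenting receptor chain IL15RA rose 13.5-fold, from 2.67 to 36.2 CPM. The anti-inflammatory cytokine IL10 rose from 0.305 to 3.36 CPM, and its receptor chain IL10RA from 59.8 to 575 CPM. Of 17 growth factor and TGF-beta family genes 10 rose (58.8%) and 3 fell (17.6%, against 33.6% of all tested genes). In this list 1 fell without vehicle replicate 2, and 6 with total-count scaling. VEGFC, a lymphatic growth factor, read 15.0, 16.8, 12.6 and 15.5 CPM with vehicle and 187, 199, 178 and 189 CPM with LPS. VEGFA, its vascular relative, had a log2 fold change of -0.3 with overlapping libraries. That call was lost without vehicle replicate 2 or LPS replicate 3 or 4 (edgeR adjusted p = 0.07, 0.054 and 0.069), and with DESeq2 (Wald test adjusted p = 0.053). CSF3 (G-CSF) rose to 5.48 CPM from 0.108 CPM.

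Chemokines attract leukocytes, and 10 of 13 tested CXC chemokines (76.9%) and 13 of 15 tested CC chemokines (86.7%) rose, against 28.6% of all tested genes. Of the CXC genes 1 was lower (CXCL14), and no CC gene was. The CC and CXC lists had median log2 fold changes of 3.49 and 3.62. The neutrophil-attracting genes rose from measurable levels. CXCL1 read 17.8, 21.7, 17.6 and 12.7 CPM with vehicle and 428, 475, 495 and 410 CPM with LPS, CXCL2 rose 22.6-fold to 143 CPM and CXCL3 15.7-fold to 225 CPM. CXCL6 rose 4.71-fold to 5.92 CPM. CXCL5, a close neighbour and relative of CXCL6, was at 0.624 CPM with vehicle and 0.882 CPM with LPS and did not pass the test (edgeR adjusted p = 0.28). CXCL3, CXCL5 and CXCL6 were named for their promoters, after their values were seen.

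The genes for CXCL9, CXCL10 and CXCL11, which attract T cells through CXCR3, started from almost nothing. CXCL10 read 0.377, 0.289, 0.406 and 0.414 CPM with vehicle and 115, 102, 101 and 131 CPM with LPS. CXCL11 read 0.0419, 0, 0.058 and 0.0689 CPM with vehicle and 12.1 ± 1.47 CPM (SD, n = 4) with LPS. CXCL9 had 0, 0, 0 and 2 counts with vehicle and 125, 73, 135 and 151 with LPS, a ratio of pooled levels of 257 with a 95% exact counting interval of 70.9 to 2132. All 3 genes lie side by side on chromosome 4.

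Promoters were compared within the CXC family, since 13 of its 14 genes had one in the table. The NF-kB letters were in 7 of the 13 (53.8%), against 1.69% of the tested genes. All 7 are shown with 9 bases on each side, the match in capitals, and all are on chromosome 4.
CXCL1: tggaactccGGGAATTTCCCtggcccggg
CXCL2: tggagctccGGGAATTTCCCtggcccggg
CXCL3: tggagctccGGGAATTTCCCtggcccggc
CXCL5: atgagttcaGGGAATTTCCCcagcatccc
CXCL6: ctgagttcaGGGAATTTCCCcagcatccc
CXCL10: aggagcagaGGGAAATTCCgtaacttgg
CXCL11: actcaaagaGGGAAATTCCtgtgccata
In the first 5 genes the 2 overlapping matches, 1 on each strand, began 78 to 91 bases before the start. CXCL10 and CXCL11 share a different match of 10 letters, which began 177 and 76 bases before the start. CXCL5 and CXCL6 have the same capitals, beginning 91 and 90 bases before the start, and of these 7 genes CXCL5 was the one that did not pass the test. CXCL8 rose by 3.62 on the log2 scale, and these exact letters are not in its window. Looser spellings of the NF-kB element were not searched, so this does not show that CXCL8 lacks one. The interferon-stimulated response element, searched as GAAA, any 2 bases, then GAAA, on both strands, was found in CXCL9 and CXCL10 (2 of 13, 15.4%, against 2.95% of tested genes). CXCL10 held both. Across all 10709 tested genes with a promoter, 9 held both sets of letters (0.084%), and they were GBP4, IFIH1, GCA, CXCL10, TAP1, OAS3, PATL2, B2M and TERB1. The share of promoters with each motif among all genes at least 4-fold higher is not given, because only 396 of those 533 genes (74.3%) had a promoter in the table, which voids that comparison.

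The 250 bases before the start of 5 induced genes are printed to show how these elements lie (RefSeq, GRCh38.p14, gene strand, 5′ to 3′). Capitals mark the NF-kB letters, the interferon response letters and, in IFNB1, the TATA letters (TATAAA, searched on the gene strand only, present in 4.0% of tested genes' promoters). CXCL10 lies on the minus strand, with its window at chr4:76023498-76023747, its interferon response letters beginning at 221 and its NF-kB letters at 177 bases before the start.
CXCL10: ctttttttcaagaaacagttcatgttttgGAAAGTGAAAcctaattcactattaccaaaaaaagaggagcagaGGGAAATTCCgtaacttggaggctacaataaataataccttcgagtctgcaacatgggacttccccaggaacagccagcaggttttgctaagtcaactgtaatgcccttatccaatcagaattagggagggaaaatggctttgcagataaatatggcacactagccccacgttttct
IL6 lies on the plus strand, with its window at chr7:22726950-22727199 and its NF-kB letters beginning 73 bases before the start.
IL6: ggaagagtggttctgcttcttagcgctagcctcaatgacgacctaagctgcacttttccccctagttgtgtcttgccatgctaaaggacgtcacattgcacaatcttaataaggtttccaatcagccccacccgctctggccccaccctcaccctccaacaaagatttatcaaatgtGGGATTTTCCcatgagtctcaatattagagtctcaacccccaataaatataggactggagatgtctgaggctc
IFNB1 lies on the minus strand, with its window at chr9:21077943-21078192, its NF-kB letters beginning 66 and its TATA letters 31 bases before the start.
IFNB1: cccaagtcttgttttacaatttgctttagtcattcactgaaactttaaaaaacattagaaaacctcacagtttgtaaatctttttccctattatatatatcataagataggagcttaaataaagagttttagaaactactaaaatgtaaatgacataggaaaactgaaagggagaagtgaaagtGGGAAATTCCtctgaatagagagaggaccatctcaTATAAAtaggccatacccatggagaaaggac
IFIT1 lies on the plus strand, with its window at chr10:89392373-89392622 and interferon response letters, read on the other strand, beginning at 116 and at 103 bases before the start.
IFIT1: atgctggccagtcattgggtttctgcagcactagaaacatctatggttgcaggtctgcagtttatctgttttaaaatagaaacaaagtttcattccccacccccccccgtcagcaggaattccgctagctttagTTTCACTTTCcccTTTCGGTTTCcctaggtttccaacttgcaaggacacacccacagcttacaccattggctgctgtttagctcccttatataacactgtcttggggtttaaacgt
ISG15 lies on the plus strand, with its window at chr1:1013247-1013496 and overlapping interferon response letters that begin 113 and 107 bases before the start.
ISG15: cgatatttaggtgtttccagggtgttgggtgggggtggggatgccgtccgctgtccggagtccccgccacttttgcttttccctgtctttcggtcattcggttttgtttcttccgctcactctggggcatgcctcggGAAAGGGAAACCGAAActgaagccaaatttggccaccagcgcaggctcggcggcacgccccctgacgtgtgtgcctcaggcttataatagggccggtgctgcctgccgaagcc
The first 3 genes carry the NF-kB letters, and CXCL10, IFIT1 and ISG15 carry the interferon response letters. IL6 rose by 6.48, IFIT1 by 6.73 and ISG15 by 4.27 on the log2 scale.

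CC chemokines rose as a group, with 13 of 15 at least 4-fold higher. CCL20, which attracts CCR6-bearing lymphocytes and dendritic cells, went from 26.2, 31.8, 23.3 and 23.3 CPM to 1132, 1293, 1095 and 1082 CPM. CCL5 was already at 147 CPM and rose 11.2-fold. CCL8 went from 0, 0.0413, 0.087 and 0.0689 CPM to 14.1, 11.9, 10.9 and 11.5 CPM. CCL3 and CCL3L3, and CCL4 and CCL4L2, are near-identical gene copies, so how their reads were divided between copies is uncertain.

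Of 19 tested receptors for chemoattractants, 5 rose (26.3%, against 28.6% of all tested genes) and 9 fell (47.4%, against 33.6%), with a median log2 fold change of -0.63. CCR7, which guides cells to lymph nodes, rose from 0.251, 0.413, 0.58 and 0.207 CPM to 15.8, 15.5, 17.9 and 14.7 CPM. CX3CR1, the fractalkine receptor, fell from 10.6 ± 5.02 to 1.22 ± 0.216 CPM (SD, n = 4), with the vehicle libraries far apart but all above the LPS libraries. CCR2, the receptor for CCL2 on monocytes, fell from 2.63 to 0.308 CPM, and CCR1 from 46.5 to 20.5 CPM. CCL2, the main ligand of CCR2, was among the chemokines that rose, by 3.4 on the log2 scale.

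Interferon genes were scarce but present. Of 9 interferon genes in the table, 2 had enough counts to be tested. IFNB1 had 0, 0, 0 and 2 counts with vehicle and 54, 75, 88 and 140 counts with LPS, a ratio of 190 with a 95% exact counting interval of 52.2 to 1574. IFNL1, a type III interferon, had 0, 0, 0 and 1 counts with vehicle and 26, 12, 17 and 18 counts with LPS, a ratio of 77.6 with an interval of 13.5 to 3108. These intervals cover counting error only.

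Genes that interferon is known to induce rose widely. Of 43 tested antiviral effectors 39 rose (90.7%, against 28.6% of all tested genes) and 2 fell, with a median of 3.24. With total-count scaling 4 of them fell. All 6 tested guanylate-binding proteins rose (median 4.8). MX1, a GTPase that blocks viral replication, read 11.5, 8.26, 11.5 and 13.4 CPM with vehicle and 443, 410, 396 and 381 CPM with LPS. IFIT2, an RNA-binding antiviral protein, rose 210-fold, from 0.628, 0.991, 1.22 and 1.31 CPM to 205, 149, 241 and 296 CPM. GBP5, a GTPase that acts on bacteria and inflammasomes, read 5.19, 5.49, 5.48 and 5.03 CPM with vehicle and 263, 287, 249 and 297 CPM with LPS. The 2 antiviral members called lower were LGALS9 and IFITM2, with log2 fold changes of -0.45 and -0.41. The call for IFITM2 was lost without vehicle replicate 1 or 2, or LPS replicate 1, 3 or 4 (edgeR adjusted p = 0.084 to 0.14), which left 1 fall in the list. It was also lost with the 8 compared libraries alone and with RLE size factors (edgeR adjusted p = 0.084 and 0.065). With DESeq2 it was lost too (Wald test adjusted p = 0.07).

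The factors that drive these genes moved unevenly. Of 7 tested interferon regulatory factors 4 rose (57.1%, against 28.6% of all tested genes) and 3 fell (42.9%, against 33.6%). IRF1 rose 6.09-fold, from 60.9 ± 4.19 to 370 ± 15.2 CPM (SD, n = 4), and IRF7 4.18-fold. IRF3, which acts directly below TLR4 and TRIF, had a log2 fold change of -0.51 with overlapping libraries, and IRF5 had -0.75. Of 33 cytokine receptor and JAK-STAT genes 18 rose (54.5%) and 8 fell (24.2%, below the overall 33.6%). Total-count scaling turned this split to 11 and 12. STAT4, which carries IL-12 and interferon signals, read 2.09, 2.06, 2.15 and 2.07 CPM with vehicle and 69.9, 71.4, 72.9 and 69.9 CPM with LPS, with little spread in either group. STAT5A rose by 3.23 on the log2 scale. TGFBR2 and TGFBR1, the receptors for the dampening cytokine TGF-beta, fell by 1.79 and 1.31, and CSF1R, the receptor for the macrophage growth factor M-CSF, fell from 1557 to 808 CPM.

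**Figure D3:**
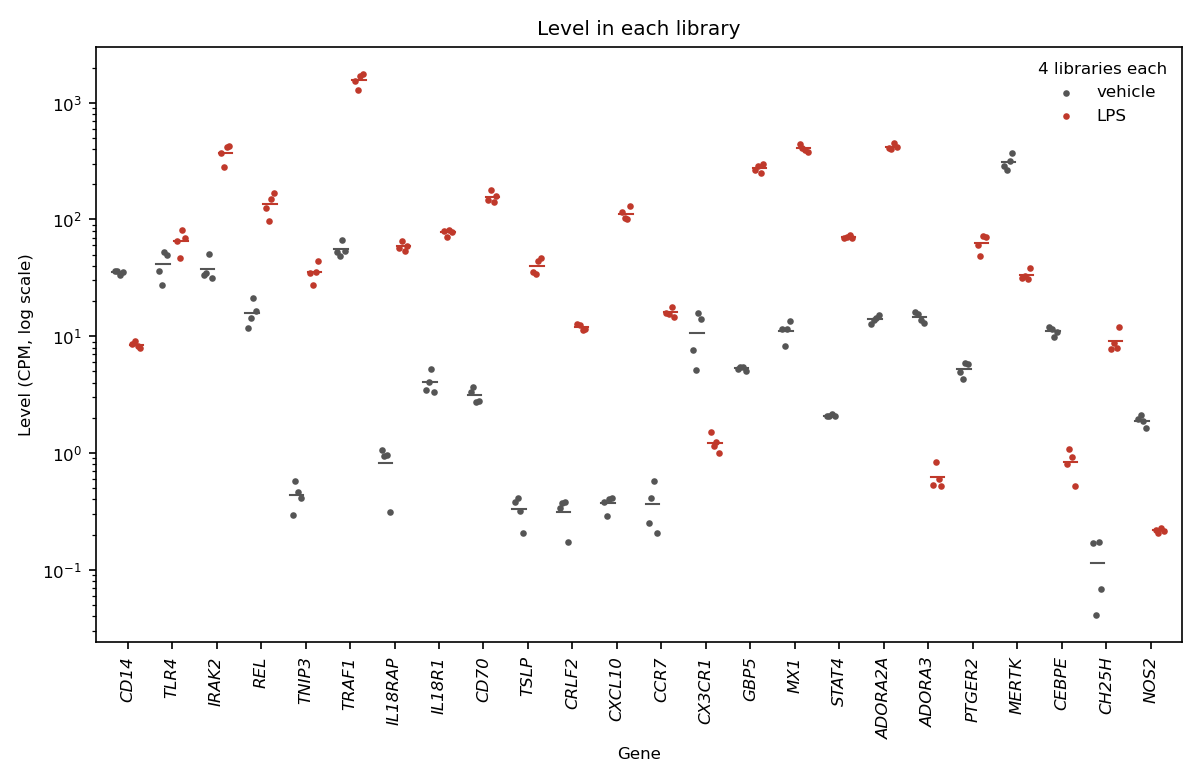
Level of 24 genes (CPM, log scale) in each of the 4 vehicle libraries (grey) and the 4 LPS libraries (red), with a bar at each mean. The groups overlap for TLR4, and they are separate for the other genes, from CH25H, under 0.2 CPM with vehicle, to TRAF1, above 1000 CPM with LPS.

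Among transcription factors, 16 of 24 AP-1, MAF, EGR, NR4A and IER genes rose (66.7%, against 28.6% of all tested genes) and 4 fell. NR4A3, an orphan nuclear receptor, rose 17.7-fold, from 3.73, 3.8, 6.52 and 4.65 CPM to 71.1, 58.8, 98.0 and 107 CPM. MAF, a factor of resident macrophages, fell 10.3-fold, from 13.2 ± 1.62 to 1.28 ± 0.186 CPM (SD, n = 4), and FOS was lower at 3 h, 204 against 95.0 CPM. Of 40 myeloid, KLF and MYC factors 23 rose (57.5%) and 10 fell, a smaller share than the 33.6% of all tested genes. HIVEP2, a zinc finger protein that binds NF-kB-like sites, rose 20.1-fold to 97.1 CPM. CEBPE, a factor of granulocyte maturation, read 11.9, 11.6, 9.89 and 10.8 CPM with vehicle and 0.797, 1.09, 0.917 and 0.517 CPM with LPS. CEBPA, its relative earlier in myeloid development, fell 5.57-fold, while CEBPD, a factor of the acute phase response, rose by 1.69 on the log2 scale.

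Chromatin regulators showed no common direction, 8 higher (33.3%) and 9 lower (37.5%) of 24 tested, near the 28.6 and 33.6% of all tested genes. KDM6B, the inducible demethylase of the repressive mark on lysine 27 of histone H3, rose 4.91-fold, from 58.8 ± 8.05 to 289 ± 5.36 CPM (SD, n = 4). EZH2, the enzyme that writes that mark, rose too, 3.68-fold to 201 CPM. KDM6A, the X-linked relative of KDM6B, had 1, 0, 1 and 0 counts with vehicle and 60, 55, 66 and 88 counts with LPS. Its ratio of pooled levels was 143, with a 95% exact counting interval of 39.2 to 1187, and its level with LPS was 3.08 CPM. That interval covers counting error only. Whether these few reads come from intact KDM6A mRNA was not tested. HDAC5 fell 4.01-fold from 365 CPM, and the DNA methyltransferases DNMT1 and DNMT3A fell by 0.95 and 1.1 on the log2 scale.

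Enzymes that LPS is known to induce in macrophages rose in 12 of 16 cases and fell in 2 (4 with total-count scaling, and 1 without vehicle replicate 1, 2 or 4 or LPS replicate 1 or 3). CH25H, which makes the antiviral oxysterol 25-hydroxycholesterol, went from 0.168, 0.0413, 0.174 and 0.0689 CPM to 7.84, 8.68, 7.97 and 11.9 CPM. KYNU, an enzyme of tryptophan breakdown below IDO1, rose 8.76-fold from an already high 142 ± 9.95 to 1247 ± 27.1 CPM (SD, n = 4). GCH1, which makes the cofactor of nitric oxide synthases, rose by 4.34 on the log2 scale. The inducible nitric oxide synthase NOS2 fell, from 1.97, 2.11, 1.86 and 1.62 CPM to 0.221, 0.208, 0.229 and 0.216 CPM.

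Of 17 eicosanoid genes 7 rose and 7 fell (41.2% each, against 28.6 and 33.6% of all tested genes; median 0.16, which turned to -0.11 with total-count scaling). The 4 largest rises were the prostaglandin synthase PTGS2 and 3 prostaglandin receptors that signal through cyclic AMP. PTGER2 read 4.94, 4.34, 5.86 and 5.79 CPM with vehicle and 61.0, 48.8, 72.4 and 70.8 CPM with LPS. PTGIR, the prostacyclin receptor, rose 10.1-fold to 101 CPM, and PTGER4 4.57-fold to 295 CPM. The 5 largest falls included 4 genes of leukotriene synthesis, ALOX5 (-1.79 on the log2 scale), LTA4H (-0.94), LTC4S (-0.84) and ALOX5AP (-0.6), and the leukotriene receptor CYSLTR1, which fell from 22.6 to 4.85 CPM.

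Receptors for purines and small metabolites split between members of one family. Of 27 tested 11 rose (40.7%) and 10 fell (37.0%), against 28.6 and 33.6% of all tested genes. The adenosine receptor ADORA2A, which raises cyclic AMP, read 12.8, 13.7, 14.2 and 15.3 CPM with vehicle and 410, 399, 450 and 421 CPM with LPS, a 29.9-fold rise with an SE of 0.08 on the log2 scale. ADORA3, which lowers cyclic AMP, read 16.2, 15.5, 13.7 and 13.0 CPM with vehicle and 0.532, 0.832, 0.596 and 0.517 CPM with LPS, a 23.6-fold fall. ADORA1, the other receptor of that kind, fell 3.71-fold from 1.3 CPM. HCAR2 and HCAR3, receptors for hydroxy acids and close copies of each other, rose to 3.33 and 9.55 CPM. LPAR5, a lysophosphatidic acid receptor, fell from 2.45 to 0.0941 CPM, and RGS14, which limits signalling by inhibitory G proteins, fell 18.0-fold from 59.2 to 3.29 CPM.

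**Figure D4:**
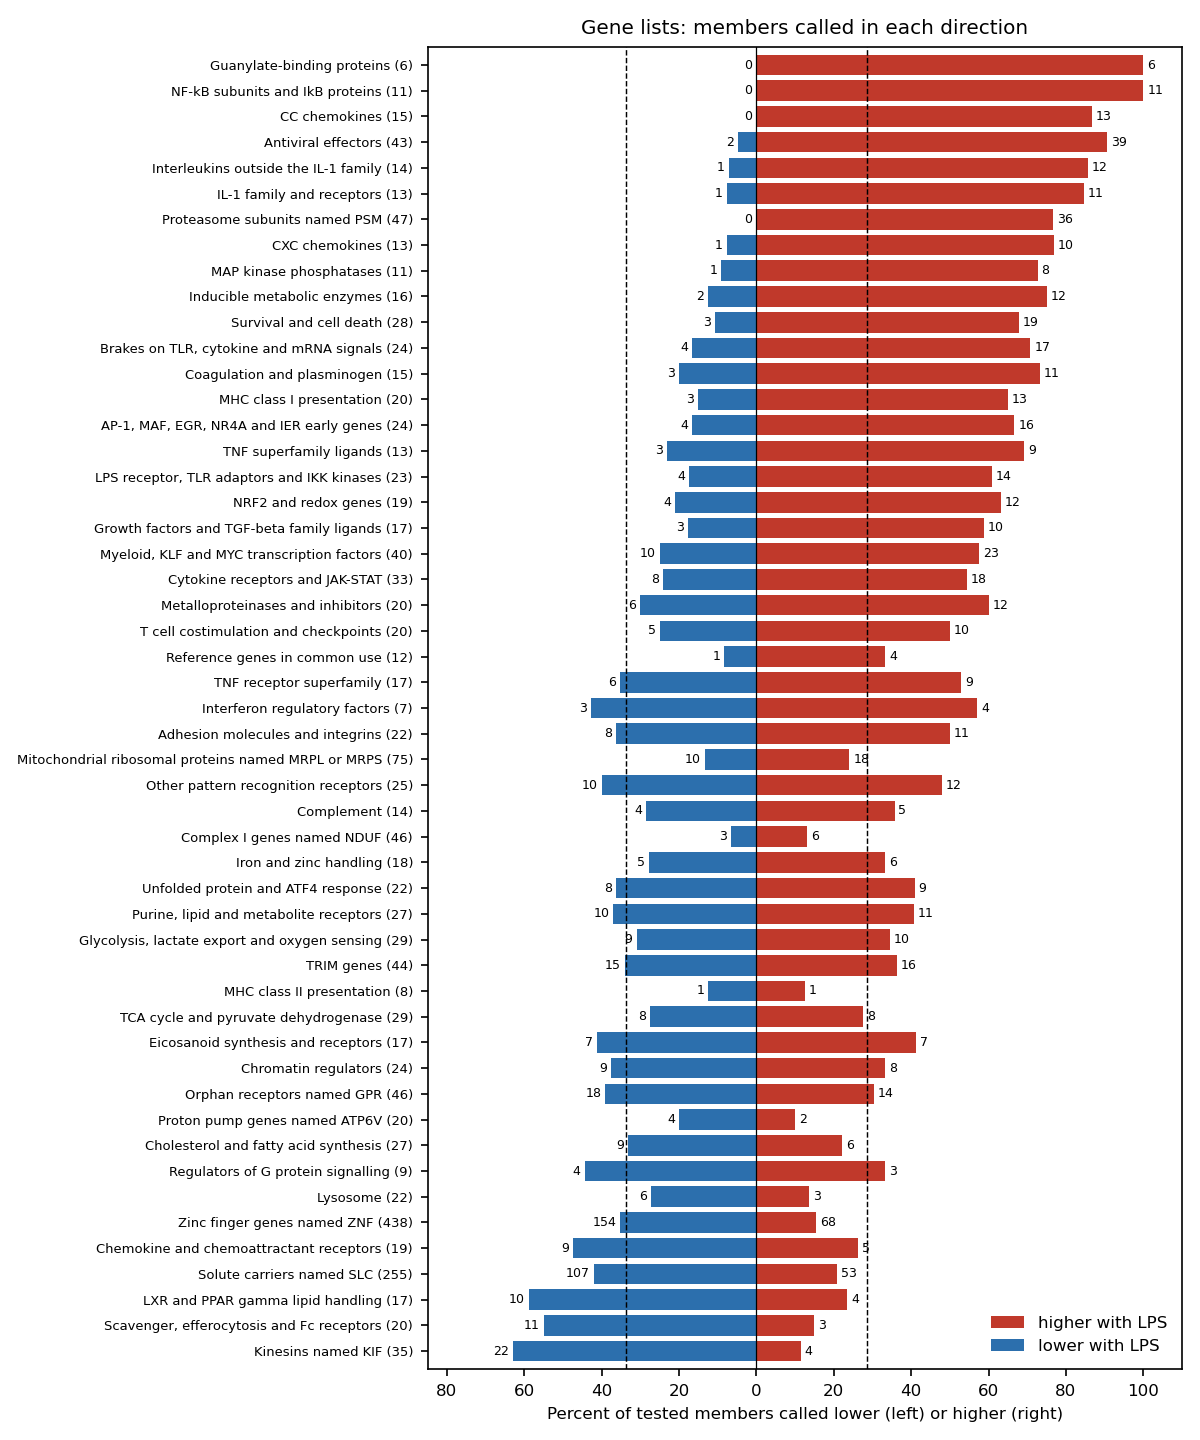
Percent of the tested members of gene lists called lower (blue, left) or higher (red, right), with the counts at the bar ends, the number tested in brackets and dashed lines at the shares over all tested genes (33.6 and 28.6%). Guanylate-binding proteins and NF-kB genes rose in full, and kinesins (22 of 35) and scavenger receptors (11 of 20) were mostly lower.

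Energy metabolism genes showed no common shift. Of 29 glycolysis and oxygen-sensing genes 10 rose (34.5%, against 28.6% of all tested genes) and 9 fell (31.0%, against 33.6%). Of 29 genes of the TCA cycle and pyruvate dehydrogenase 8 rose and 8 fell (27.6% each). With total-count scaling these counts became 6 and 18, and 4 and 15. SLC2A6, a lysosomal hexose carrier, rose most among the first, from 131 to 794 CPM, and HIF1A, the hypoxia-inducible factor subunit, rose from 94.2 to 377 CPM. Of the 4 kinases that switch off pyruvate dehydrogenase, PDK4 and PDK2 fell most. PDK4 went from 3.48, 3.34, 5.92 and 3.52 CPM to 0.62, 0.208, 0.321 and 0.604 CPM, and PDK2 from 14.5 to 2.61 CPM. PDK3 had a log2 fold change of -0.58 (edgeR adjusted p = 0.023), a call lost without vehicle replicate 1 or LPS replicate 1 or 3 (0.057, 0.081 and 0.076). PDK1 had -0.12 (0.51), and both were looked up after the values of the others were seen. IDH1, the cytosolic isocitrate dehydrogenase, fell by 1.75 on the log2 scale. ACACB, the acetyl-CoA carboxylase that restrains fat burning at mitochondria, fell 10.5-fold from 11.4 to 1.08 CPM.

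Genes for taking up lipid and dead cells were mostly lower. Of 20 scavenger, efferocytosis and Fc receptors 11 fell and 3 rose (median -0.56), and of 17 genes of LXR and PPAR gamma lipid handling 10 fell and 4 rose (2 rose with total-count scaling; median -0.47). MERTK, the kinase receptor that recognises apoptotic cells, read 286, 263, 316 and 372 CPM with vehicle and 31.8, 32.7, 30.7 and 38.1 CPM with LPS, a 9.28-fold fall. PPARG fell 3.44-fold, from 84.5 ± 8.61 to 24.6 ± 1.79 CPM (SD, n = 4), and its target CD36 2.11-fold from 379 CPM. OLR1 (LOX-1), a receptor for oxidised lipoprotein, went against the list, from 28.6 to 120 CPM. The cholesterol exporters ABCA1 and ABCG1 had log2 fold changes of 0.92 and 2.23.

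The clotting and clot-dissolving genes mostly rose, 11 of 15 (73.3%, against 28.6% of all tested genes), with 3 lower (20.0%, against 33.6%). PLAT, tissue plasminogen activator, read 0.67, 0.826, 0.58 and 0.31 CPM with vehicle and 42.3, 38.8, 42.1 and 40.5 CPM with LPS. F3 (tissue factor), which starts clotting, rose from 6.66 to 25.6 CPM. THBD (thrombomodulin), which restrains it, fell 3.29-fold from 221 ± 52.6 to 67.1 ± 17.5 CPM (SD, n = 4). PROC, the protein C that thrombomodulin activates, was outside that list. It was among the 12 largest falls under the named-gene rule, from 10.1 to 0.634 CPM.

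Surface molecules for contact with other cells changed in both directions. Of 22 adhesion genes 11 rose, a larger share than the 28.6% of all tested genes. The 8 that fell (36.4%) were near the overall 33.6%. CD44, the hyaluronan receptor, read 146, 141, 184 and 166 CPM with vehicle and 1870, 1770, 2199 and 2011 CPM with LPS. ITGB8, an integrin chain that activates TGF-beta, rose 13.5-fold to 103 CPM. ITGAL, the LFA-1 chain, fell from 747 to 220 CPM, and ITGA4 from 113 to 32.1 CPM. Of 20 costimulation and checkpoint genes 10 rose and 5 fell. CD80 rose from 0.754, 1.2, 1.28 and 1.24 CPM to 47.0, 39.5, 48.7 and 49.4 CPM, whereas HAVCR2 (TIM-3) fell 5.06-fold and VSIR (VISTA) had a log2 fold change of -2.3. MHC class I presentation genes rose in 13 of 20 cases (65.0%), led by the peptide transporter TAP1 at 2.17, and fell in 3 (15.0%). Of 8 tested class II genes 1 rose and 1 fell (12.5% each), and 0 and 5 with total-count scaling.

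Survival and cell death genes rose in 19 of 28 cases (67.9%, against 28.6% of all tested genes), on both sides of that balance. In this list 3 fell (10.7%, against 33.6%). The death-promoting PMAIP1 (NOXA) rose 29.6-fold, from 5.44 ± 0.877 to 162 ± 19.5 CPM, and CASP5, a caspase that binds LPS in the cytosol, 20.2-fold, from 1.4 ± 0.13 to 28.3 ± 3.41 CPM (SD, n = 4 each). The protective BIRC3 and CFLAR rose by 3.88 and 2.64 on the log2 scale. CASP8 and RIPK3, which start apoptosis and necroptosis, fell by 0.72 and 0.81.

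Among gene families taken by name, the kinesins, motors that move along microtubules, were mostly lower. Of 35 kinesins 22 fell and 4 rose (median -0.52), against 33.6% lower and 28.6% higher over all tested genes. KIF25 fell most, by 2.82 on the log2 scale. Of 47 tested proteasome genes 36 rose and 0 fell, by at most 1.04 on the log2 scale (PSMD11), and with total-count scaling 16 rose and 5 fell. Of 46 complex I genes 37 were not called, 6 rose and 3 fell, and 2 rose and 16 fell with total-count scaling. Leaving out vehicle replicate 2 gave 11 rises, and leaving out vehicle replicate 3 or 4 gave 6 or 5 falls. The common reference genes ACTB and GAPDH did not pass the test, with log2 fold changes of 0.13 (edgeR adjusted p = 0.086) and 0.04 (0.67), which total-count scaling turned to -0.14 (0.049) and -0.23 (0.0067).

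Some genes that rose strongly lay next to each other. Tested genes were ordered by their RefSeq start on GRCh38.p14, and runs of at least 3 neighbours that were each called and at least 4-fold higher were listed. There were 20 such runs, with 66 of the 533 genes at least 4-fold higher, and 0 runs of genes at least 4-fold lower. The 2 longest had 5 genes. On chromosome 1, GBP1, GBP2, GBP7, GBP4 and GBP5 spanned bases 89052319 to 89272860, and on chromosome 17, CCL18, CCL3, CCL4, CCL3L3 and CCL4L2 spanned 36064272 to 36212873. Other runs held duplicated families, such as IFIT2, IFIT3, IFIT1 and IFIT5 on chromosome 10, OAS1, OAS3 and OAS2 on chromosome 12, and IL1A, IL1B and IL36G on chromosome 2.

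Some runs joined genes that are not relatives. CD44, SLC1A2 and FJX1 lay in order on chromosome 11, between 35139171 and 35620865, with log2 fold changes of 3.62, 4.88 and 2.89. SOCS1, LITAF and SNN on chromosome 16 rose by 3.3, 2.54 and 4.44. CD80, ADPRH and PLA1A on chromosome 3 rose by 5.35, 2.86 and 3.9, and POLR1F, MACC1 and ITGB8 on chromosome 7 by 2.16, 3.45 and 3.75. Whether reads running past the end of one gene added to the count of the next was not tested. The members of these runs were found by their values and are a description of them.

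**Figure D5:**
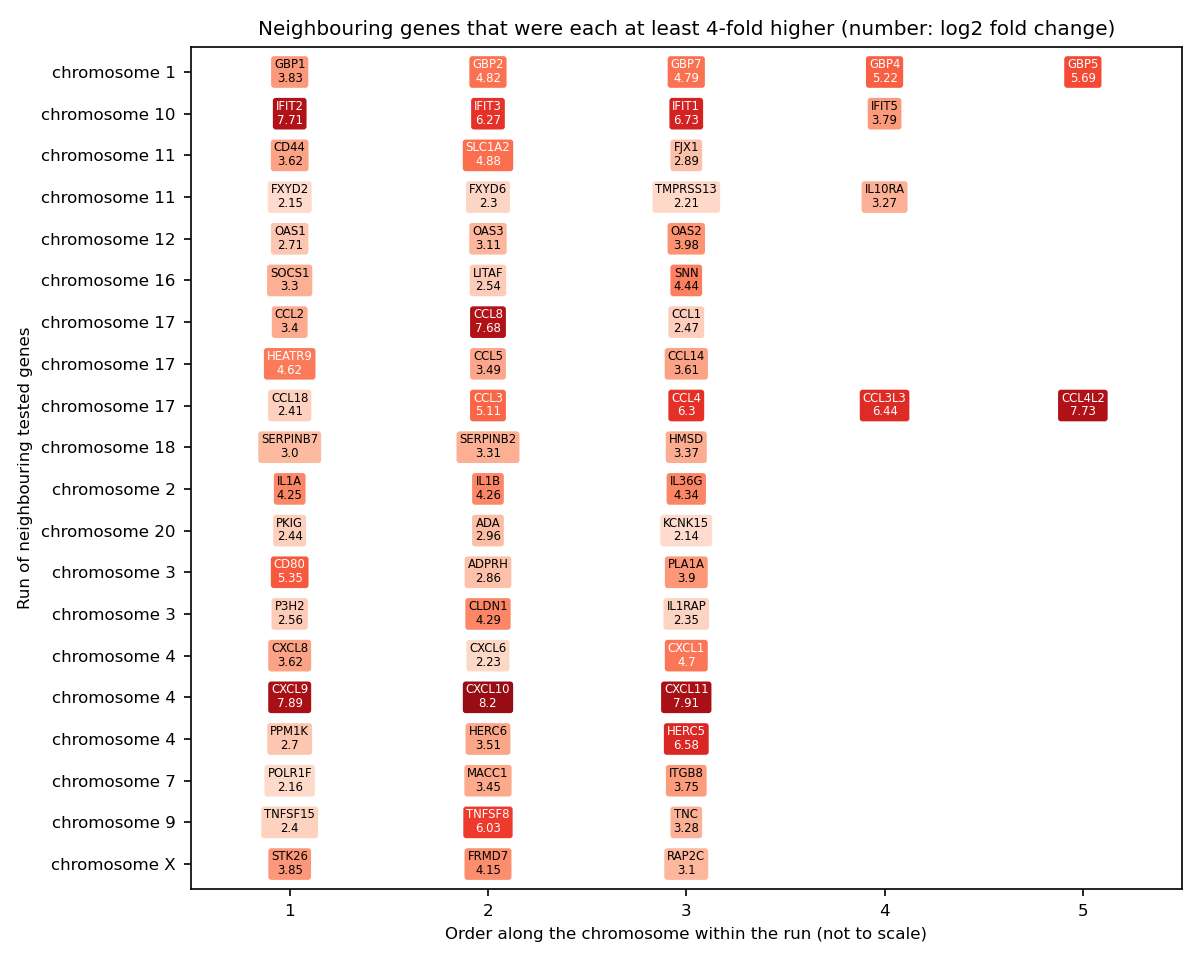
The 20 runs of at least 3 neighbouring tested genes that were each at least 4-fold higher with LPS, in chromosomal order from left to right (not to scale), with the log2 fold change under each gene symbol and darker red for larger values. The values run from 2.14 for KCNK15 to 8.2 for CXCL10.

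Long genes were called lower more often. When the 13132 tested genes with a RefSeq span were sorted into 10 equal bins by span, 40.7% of the bin of longest genes (157 to 2220 kb) were lower and 23.5% higher, with a median log2 fold change of -0.21. In the bin just above the middle (30.3 to 42.9 kb) 32.1% were lower and 31.3% higher, with a median of -0.01. The genes at least 4-fold higher or lower had median spans of 28.3 and 29.8 kb, close to the 30.3 kb of all tested genes. Genes at least 2-fold higher had a longer median span, 38.6 kb. Whether the libraries within a group also differed by gene span was not tested.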

How the data were processed

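Poly(A) RNA was sequenced on a stranded mRNA kit, per the labels' protocols. The authors deposited raw counts per gene. The submitters' processing notes name STAR 2.7.10a, featureCounts 2.0.1, DESeq2 1.26.0 and GRCh38. The sources used here do not give the annotation, the strand setting or the treatment of reads that map to several genes, so near-identical copies are uncertain. Ribosome footprint libraries were not analysed here. Of 20453 gene IDs in the table, 19827 had a symbol and 19641 matched a row of the RefSeq gene table; an ID without a symbol was not named.

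The 12 RNA libraries were fitted in 3 groups with edgeR 4.0.16 (R 4.3.3): filterByExpr (minimum count 10, minimum total 15), TMM scaling, the quasi-likelihood F test of LPS against vehicle, two-sided, and Benjamini-Hochberg adjustment over all 13327 genes tested, with calls at an adjusted p under 0.05. Standard errors were the log2 fold change over the root of F. Alternatives were DESeq2 1.42.0, other scalings, no filter, the 8 compared libraries alone, a replicate block and leaving out each library. On simulated counts with 200 changed genes among 13288, 49 of 49 and 50 of 50 genes changed 4-fold down and up were recovered, 43 of 50 and 47 of 48 at 2-fold, with 11 false calls. The simulation gave every gene the same spread and changed far fewer genes than were called in the real data. It therefore does not give the error rate of the real calls. Pairs of libraries of a group differed by more than sampling noise, so none was counted as a duplicate. Chi-square per degree of freedom was 11.75 for vehicle replicates 1 and 2 and 14.03 for 3 and 4. Across those pairs it was 30.32 to 82.46, so the 4 vehicle libraries were not equally alike. LPS replicate 2 gave 33.47 and 34.42 against LPS replicates 3 and 4, and the other LPS pairs gave 7.01 to 15.95. The cause was not tested.

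The text names the 12 genes with the largest rise and fall (mean of at least 5 CPM, libraries not overlapping), a fixed panel, and up to 5 called members per direction of each list. Genes outside this are said to be so. The members and the 54 lists were chosen with earlier results of these data known. Lists are described by counts and medians, with no set test, and shares of all counts were compared by a two-sided exact permutation test over libraries. Promoters came from RefSeq's table for GRCh38.p14. A few genes and gene families are not reported here.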

Additional observations from a re-analysis of the deposited data

Results flagged for a closer look

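Each group of 4 libraries was searched, for the genes named in the report, for a library whose gap to the nearest other one exceeded Dixon's 95% limit for 4 samples. Of 424 such tests, 20 found one, and chance gives about 5%. LPS replicate 2 accounted for 6 of the 20 and vehicle replicate 4 for 5. The cause was not tested.

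In LPS replicate 2, ABCG1 read 1.35 CPM (1.82 to 1.88 in the other 3), OAS2 184 CPM (235 to 237), PSMD11 175 CPM (194 to 197) and TAB1 14.2 CPM (16.3 to 16.8), all low. In the same library IFITM2 was high at 12.3 CPM (9.83 to 10.2 in the other 3), as was IL15 at 10.9 CPM (9.17 to 9.4). LPS replicate 3 was high for IL1B at 17540 CPM (14641 to 14795) and low for LY96 at 15.9 CPM (17.6 to 17.9) and TAP1 at 619 CPM (715 to 723). LPS replicate 4 was high for ACOD1 at 180 CPM (107 to 116) and GBP2 at 372 CPM (343 to 347), and LPS replicate 1 was low for CCL18 at 0.576 CPM (0.905 to 0.936).

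Among vehicle libraries, replicate 4 was low for IL18RAP at 0.31 CPM (0.95 to 1.05 in the other 3) and IL1A at 1.17 CPM (2.31 to 2.55). It was also the only vehicle library above 0 for CXCL9 at 0.0689 CPM, IFNB1 at 0.0689 CPM and IFNL1 at 0.0345 CPM, which are 1 or 2 counts each. Replicate 3 was low for DHX58 at 29.0 CPM (33.6 to 34.2) and high for PDK4 at 5.92 CPM (3.34 to 3.52), and replicate 1 was low for CD80 at 0.754 CPM (1.2 to 1.28).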

How the results depend on the processing

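With total counts in place of TMM, 2230 genes were higher and 6654 lower, 438 at least 4-fold higher and 563 at least 4-fold lower, and 3 of the genes called before were called in the opposite direction. The other alternatives gave 3578 to 4259 genes higher, 4099 to 4711 lower and 345 to 535 at least 4-fold lower, and DESeq2 gave the most at least 4-fold higher, 659. With total counts the log2 fold change turned to -0.14 for ACTB and to -0.23 for GAPDH, and for GAPDH to -0.01 without vehicle replicate 4 (to 0.09 without another library). ACTB passed the test with RLE size factors, with DESeq2 and without vehicle replicate 1, each at 0.18. For the named genes, 2917 values under an alternative kept their direction and side of the threshold and 16 lost the call, all of them for TLR4, VEGFA, IFITM2 or PDK3, and PDK1 passed the test with total counts (-0.4). Of the list counts, 1443 stayed within 1.5 times and 69 did not.

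Leaving out any 1 library gave share gains of 3.36 to 3.49 percentage points for cytokines and chemokines and 0.76 to 0.792 for antiviral genes, and 3 against 4 libraries cannot reach an exact permutation p below 0.0571. The median span of genes at least 2-fold higher was 38.6 kb. Other fold limits and the fit of 8 libraries were not run for the motif shares, since the promoter table covered too few of the strongly changed genes. After seeing the data, total-count CPM was tried for the genes turned on (14 in place of 18), total-count scaling for the genes past 8-fold and 16-fold (27 in place of 16 at least 16-fold lower), and other scalings, fewer libraries and the block for the runs of neighbours (16 to 20 runs).

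Replicate numbers were not taken to pair the libraries, since the labels do not say that they do. Deviations of same-numbered vehicle and LPS libraries correlated above 0.1 in 3 of 4 cases (0.014 to 0.61, median 0.414). For different numbers 3 of 12 did (median -0.188). Among LPS libraries, vehicle replicates 2, 3 and 4 correlated best with their own number (0.61, 0.485 and 0.344). Vehicle replicate 1 correlated better with LPS replicate 2 than with its own number. Whether equal numbers mark a shared day or culture was not tested. A fit with the replicate block called 4136 genes higher and 4711 lower, of which 536 and 369 were at least 4-fold. Depth limits genes with a handful of counts in vehicle, such as IFNB1.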

Other observations

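Redox genes that the stress factor NRF2 is known to control mostly rose, 12 of 19 with 4 lower (median log2 fold change 0.6). These are 63.2 and 21.1%, against 28.6 and 33.6% of all tested genes. The 2 subunits of glutamate-cysteine ligase, which makes glutathione, went in opposite directions. GCLM, the modifier subunit, read 30.7, 27.8, 32.6 and 28.4 CPM with vehicle and 123, 99.0, 131 and 127 CPM with LPS. GCLC, the catalytic subunit, read 485, 508, 512 and 449 CPM with vehicle and 169, 163, 171 and 189 CPM with LPS. NFE2L2 (NRF2 itself) and TXNRD1 rose by 1.22 and 1.34 on the log2 scale, whereas HMOX1, one of the best known NRF2 targets, had -0.78 and catalase (CAT) -1.44.

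Of 18 tested iron and zinc genes 6 rose (33.3%) and 5 fell (27.8%), near the 28.6 and 33.6% of all tested genes. The zinc importers SLC39A14 and SLC39A8 rose by 2.13 and 1.81 on the log2 scale. SLC11A1, which pumps metals out of the phagosome, read 102, 110, 89.0 and 106 CPM with vehicle and 27.0, 27.7, 26.9 and 31.3 CPM with LPS. Among solute carriers as a whole, 53 of 255 rose (20.8%, against 28.6% of all tested genes) and 107 fell (42.0%, against 33.6%). With total-count scaling 29 rose and 151 fell. The amino acid carriers SLC7A2 and SLC7A8 were on opposite sides, with SLC7A2 going from 2.0 to 17.4 CPM and SLC7A8 from 75.5 to 8.79 CPM. Zinc finger genes named ZNF gave 68 rises (15.5%) and 154 falls (35.2%, near the 33.6% of all tested genes) among 438 tested. With total-count scaling there were 25 rises and 258 falls.

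Genes of the unfolded protein and ATF4 responses gave 9 rises (40.9%) and 8 falls (36.4%) of 22, against 28.6 and 33.6% of all tested genes. XBP1 rose by 1.23 on the log2 scale, and ERN1, the kinase that activates XBP1 by splicing its mRNA, read 21.2, 24.4, 46.3 and 37.8 CPM with vehicle and 9.18 ± 1.54 CPM (SD, n = 4) with LPS.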
